A study of Homo sapiens with 17 samples.

Results

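The genes described here are 10 members of the Notch pathway, out of 26457 genes in the deposited table: the receptors NOTCH1, NOTCH2 and NOTCH3, the ligands JAG1, JAG2, DLL1 and DLL4, the glycosyltransferase LFNG, and the targets HES1 and HEY1. They were chosen by name, with their normalized reads in these same 8 libraries already known. Their levels and changes are therefore a description of these libraries and not independent evidence about the pathway. All 10 were found in the table, and all 10 had enough reads to be tested.

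Notch signalling passes between touching cells. A ligand of the Jagged or Delta-like family on one cell binds a Notch receptor on the next, proteases then cut the receptor, and the freed intracellular domain enters the nucleus. There it joins the DNA-binding protein RBPJ and Mastermind coactivators and turns on targets such as HES1, a transcriptional repressor. Fringe glycosyltransferases such as LFNG add sugars to the receptor and alter which ligands it answers to. In the intestinal epithelium the pathway maintains progenitor cells and holds back the secretory lineages.

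The cells were SW480, a line from a human colon cancer with mutant p53 (mutp53). Both lines compared here stably carried a doxycycline-inducible short hairpin RNA (shRNA), which targeted LacZ in the control line and p53 in the mutp53-depleted line. Both were kept in puromycin at 1.5 µg/ml and induced with doxycycline at 1 µg/ml, and both were harvested at 0 h or following exposure to 12.5 ng/ml TNF-α for 16 h. Libraries of mRNA that kept the strand were made from 2 biological replicates, A and B, in each of the 4 groups. One line was used per hairpin, so an effect of the hairpin and a difference between the lines cannot be told apart.

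Each library held 6108488 to 13809578 reads on genes, and the values are called normalized reads, in which 1 read is worth between 0.67 and 1.51 depending on the library. NFKBIA encodes the NF-κB inhibitor IκBα and is a known TNF-α target. After TNF-α it rose by 3.78 (log2) in control and by 2.35 in mutp53-depleted cells, and TNFAIP3 rose by 6.09 and 4.15. The differences between the lines were −1.43 for NFKBIA and −1.95 for TNFAIP3 (limma adjusted p = 2.6e-05 and 0.011). That of TNFAIP3 was lost in 4 of 17 alternative settings. TNFAIP3 was also higher with depletion at 0 h, by 1.32 (limma adjusted p = 0.00089), but by 0.63 without the mutp53-depleted replicate A. Of 7 colon epithelial markers, EPCAM, KRT8, KRT18, KRT19, CDX2 and CDH1 had reads in every library and VIL1 in all but 1. EPCAM and VIL1 fell with depletion, by 1.29 and 5.49 (log2) at 0 h. The other 5 changed by less than 2-fold with depletion at both times, KRT8, KRT18 and CDH1 downwards and KRT19 and CDX2 upwards. With TNF-α, CDH1 changed by −2.51 in control and −2.15 in mutp53-depleted cells, and VIL1 by −2.10 and −2.21. CDX2 changed by −1.07 and, below 2-fold, −0.98. EPCAM, KRT8, KRT18 and KRT19 changed by less than 2-fold with TNF-α in both lines. The leukocyte and endothelial markers PTPRC, CD3E, PECAM1 and CDH5 stayed between 0 and 5.80. Of the fibroblast markers, COL1A1 ranged from 24.2 to 106, and PDGFRB was at 69.7 and 69.9 in the mutp53-depleted libraries at 0 h but between 4.27 and 8.64 elsewhere. In such bulk libraries, fewer cells expressing a gene and less RNA per cell cannot be told apart.

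Groups were compared with limma as log2(normalized reads + 1) over 14800 genes, and log2 fold changes below are on that scale, which pulls the changes of weakly expressed genes towards 0. A gene was counted as changed at a Benjamini-Hochberg adjusted p below 0.05 together with a change of 2-fold or more. The depletion effect at 16 h minus that at 0 h, called the interaction, was judged on the adjusted p alone. The comparisons are not independent of each other, since each group enters 2 of the 4 pairwise comparisons and all 4 enter the interaction.

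Upstream DNA is shown for 3 members whose mRNA behaved differently: HES1, which was higher after depletion, JAG1, which was induced by TNF-α, and JAG2, which fell after depletion. Each sequence is the 250 bases before the transcription start, from RefSeq on GRCh38.p14, read 5′ to 3′ on the strand of the gene. Capitals mark the RBPJ core, TGGGAA on either strand, by which the Notch nuclear complex binds DNA.
HES1 (chr3:194135898-194136147, plus strand): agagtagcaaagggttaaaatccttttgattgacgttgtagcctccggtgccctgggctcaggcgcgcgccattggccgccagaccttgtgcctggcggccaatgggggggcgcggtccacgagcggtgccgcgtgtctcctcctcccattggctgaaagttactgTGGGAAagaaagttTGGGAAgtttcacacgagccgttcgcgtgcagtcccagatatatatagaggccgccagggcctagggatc
JAG1 (chr20:10674000-10674249, minus strand): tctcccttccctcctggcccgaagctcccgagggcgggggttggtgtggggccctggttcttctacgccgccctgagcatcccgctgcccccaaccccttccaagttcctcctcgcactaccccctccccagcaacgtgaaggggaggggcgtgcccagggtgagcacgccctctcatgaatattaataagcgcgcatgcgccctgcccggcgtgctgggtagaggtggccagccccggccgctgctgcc
JAG2 (chr14:105168777-105169026, minus strand): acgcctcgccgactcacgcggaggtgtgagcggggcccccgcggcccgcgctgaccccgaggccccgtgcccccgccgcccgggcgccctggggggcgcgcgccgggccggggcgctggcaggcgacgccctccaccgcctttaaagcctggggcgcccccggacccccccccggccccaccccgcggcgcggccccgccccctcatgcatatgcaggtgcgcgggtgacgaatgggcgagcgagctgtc
In the HES1 window the core occurs 2 times on the plus strand, beginning 84 and 70 bases before the start, while the JAG1 and JAG2 windows hold none. A window was found for 8 of the 10 members, 9 windows in all because LFNG has 2, and DLL1 and HEY1 had none. The core was present in 2 of these 9 windows, those of HES1 and of the second LFNG start, and in 20.8% of 35116 RefSeq promoters of the same length. The NF-κB consensus, the site of the factor that TNF-α activates, was found in 1 of the 9 windows, that of NOTCH2, and in 5.21% of all promoters. The N-box CACNAG, which HES proteins bind, was found in 3 of the 9 windows (HES1, LFNG and NOTCH3) and in 32.0% of all. None of these matches overlapped another within the members' windows. They are matches of letters only, and no binding was measured at them here. Sites spelled otherwise were not searched for.

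At 0 h, mutp53-depleted cells had less mRNA for JAG2, NOTCH1, DLL1 and DLL4, and no member was called higher. Thus 4 of 10 members were called lower before TNF-α, where the background over all genes tested was 9.55% lower and 5.89% higher. At 16 h the calls were lower for JAG2, DLL1 and DLL4 and higher for HES1, against a background of 10.2% lower and 5.03% higher. TNF-α raised JAG1 and lowered LFNG in both lines. In control cells 2.97% of all genes rose and 4.27% fell with TNF-α, and in mutp53-depleted cells 1.86% rose and 4.5% fell. The interaction was called for HES1 and NOTCH1, both in the positive direction, against 2.86% of all genes in either direction and 0.655% in the positive one. Across the members the median log2 change with depletion was −0.20 at 0 h and −0.64 at 16 h, beside 0.03 and −0.01 over all genes tested. With TNF-α this median was −0.28 in the control line and −0.07 in the mutp53-depleted line, beside −0.05 and −0.06.

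**Figure D1:**
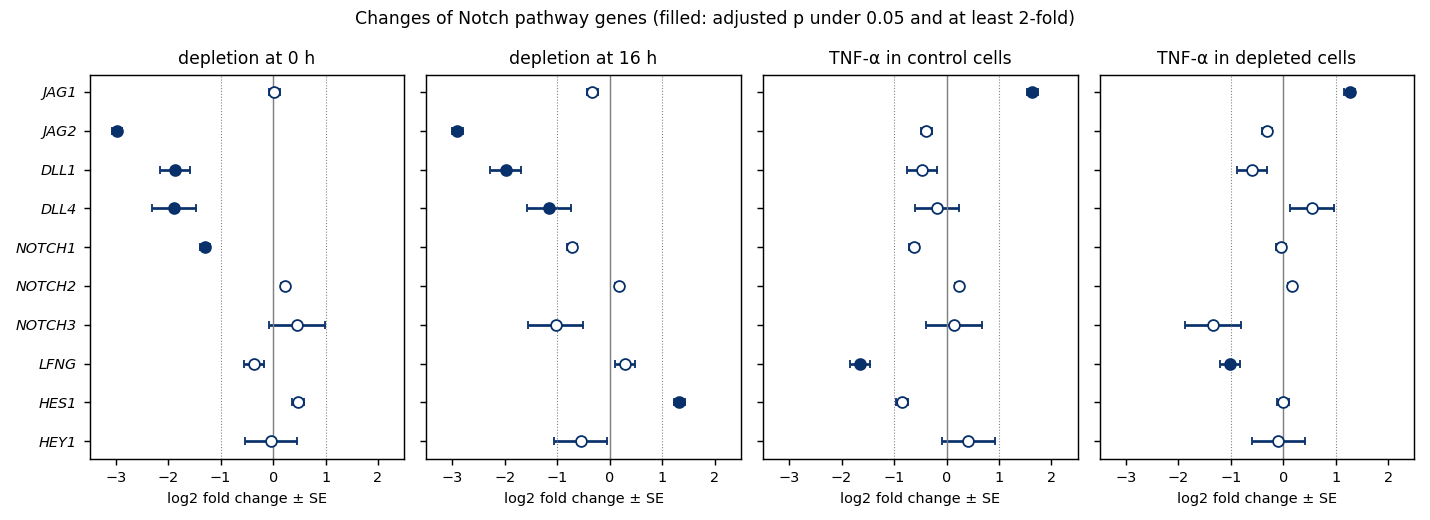
Log2 fold changes of the 10 Notch genes (horizontal axis, error bars are the standard error from limma, filled points are changes called in that comparison) for depletion at 0 h and 16 h and for TNF-α in control and mutp53-depleted cells. JAG2 has the largest changes with depletion, −2.98 and −2.91, and JAG1 the largest rise with TNF-α, 1.63 and 1.27.

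Among the ligands, JAG2 (NM_002226, hg19 chr14:105607318-105635161, minus strand) showed the largest change of any member. Its control libraries had 2221 and 2438 normalized reads at 0 h (replicates A and B) and 1912 and 1667 at 16 h, whereas the mutp53-depleted libraries had 298 and 291, then 262 and 215. Every control library thus lay above every mutp53-depleted one. The group means were 2329 ± 153 and 294 ± 4.84 at 0 h (SD, n = 2), a ratio of 7.92, and 1790 ± 173 and 239 ± 33.7 at 16 h, a ratio of 7.50. The log2 fold change was −2.98 (SE 0.10, limma adjusted p = 1.2e-13) at 0 h and −2.91 (adjusted p = 2.3e-13) at 16 h. With TNF-α it changed by −0.38 in control and −0.31 in mutp53-depleted cells (adjusted p = 0.0069 and 0.026), below the 2-fold threshold.

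JAG1 (NM_000214, hg19 chr20:10618332-10654694, minus strand), the other Jagged ligand, followed TNF-α instead. At 0 h it had 482 and 491 normalized reads in control and 513 and 477 in mutp53-depleted libraries, so the lines overlapped. After 16 h it had 1609 and 1414 in control and 1375 and 1037 in mutp53-depleted libraries. All 4 libraries at 16 h lay above all 4 at 0 h, and at 16 h both mutp53-depleted libraries lay below both control ones. JAG1 was induced by 1.63 in control (SE 0.11, adjusted p = 1.5e-09) and 1.27 in mutp53-depleted cells (adjusted p = 5.5e-08). Depletion changed JAG1 by 0.02 at 0 h (adjusted p = 0.86) and by −0.34 at 16 h (adjusted p = 0.013, below the 2-fold threshold). The difference between the inductions, −0.36, did not pass the test (adjusted p = 0.27). Without the mutp53-depleted replicate A at 16 h it was −0.56 and passed (adjusted p = 0.037).

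DLL1 (NM_005618, hg19 chr6:170591294-170599697, minus strand) and DLL4 (NM_019074, hg19 chr15:41221531-41231258, plus strand), Delta-like ligands, were weakly expressed. DLL1 had 83.5 and 112 normalized reads in control at 0 h and 70.6 and 68.3 at 16 h, against 30.2 and 21.9, then 12.6 and 22.2, in mutp53-depleted libraries. The lines did not overlap, and DLL1 fell by 1.87 at 0 h (SE 0.29, adjusted p = 2.8e-05), with a log2 change of −1.99 at 16 h (adjusted p = 1.5e-05). DLL4 had 29.8 and 19.7 normalized reads in control at 0 h and 21.3 and 21.3 at 16 h, against 4.02 and 8.23, then 9.22 and 8.64, in mutp53-depleted libraries, which were 6 to 11 reads each. It fell by 1.89 at 0 h (SE 0.42, adjusted p = 0.00097). At 16 h it was lower by 1.17 (adjusted p = 0.027), a call that was lost when any 1 of the 4 libraries at 16 h was left out (adjusted p 0.063 to 0.089), in DESeq2 (0.11), with no filter on low values (0.055) and with 5 added before the logarithm (log2 −0.92). With TNF-α, DLL1 changed by −0.47 in control and −0.59 in mutp53-depleted cells and DLL4 by −0.18 and 0.54, none of which passed (adjusted p 0.15 to 0.81).

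**Figure D2:**
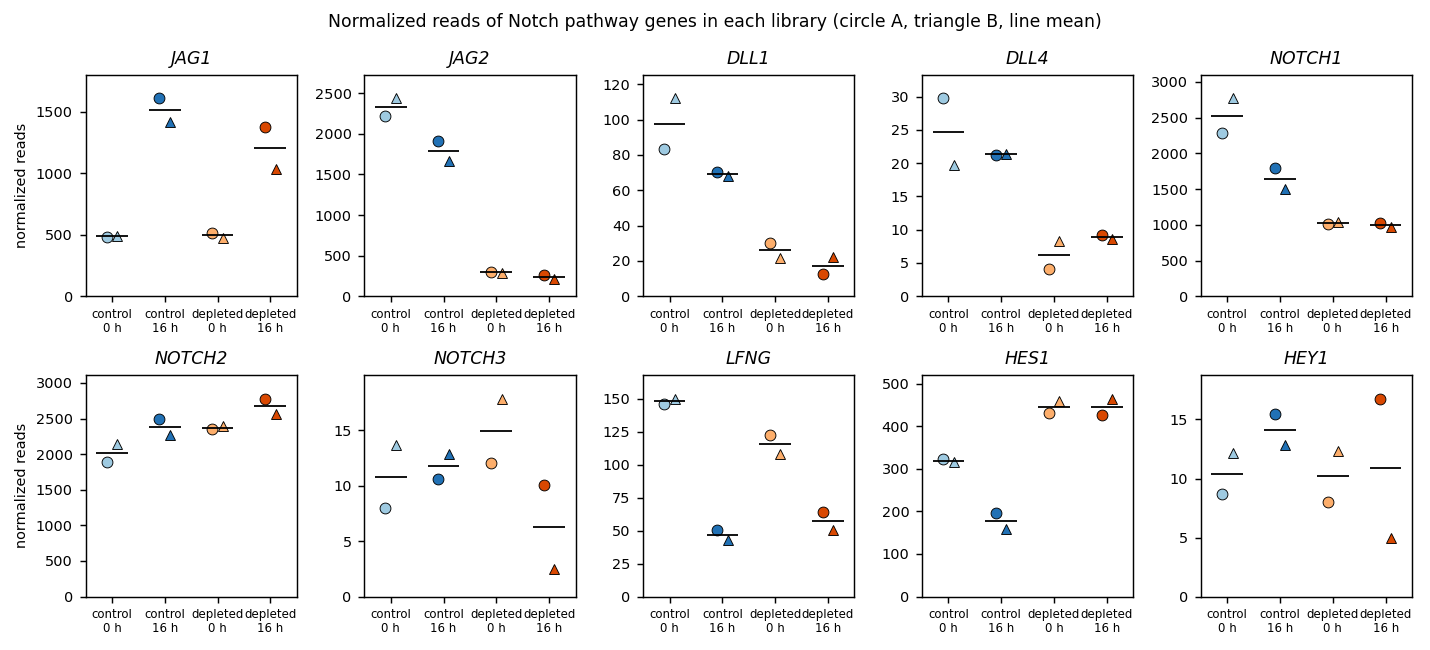
Normalized reads of the 10 Notch genes in each of the 8 libraries (linear vertical axis from 0, circles are replicates A, triangles replicates B, lines group means) for control and mutp53-depleted cells at 0 h and 16 h of TNF-α. The JAG2 points of the lines lie far apart at both times, those of JAG1 separate by time, and HES1 separates most at 16 h.

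Divided by exon length, the ligands could be compared with each other. In control cells at 0 h the order of the 4 ligands described above was JAG2 at 401 normalized reads per kb, JAG1 at 81.6, DLL1 at 29.7 and DLL4 at 7.26, and no neighbours in this order overlapped between their libraries. JAG2 made up 69.2% and 70.6% of the summed per-kb level of the 5 canonical ligands (these 4 and DLL3) in control cells at 0 h, and 48.9% and 48.6% at 16 h. In mutp53-depleted cells its share was 25.5% and 27.5% at 0 h and 13.5% and 13.2% at 16 h. JAG1 held 14.6% and 13.9% in control cells at 0 h but 68.8% and 61.9% in mutp53-depleted cells at 16 h. The most abundant ligand mRNA was therefore JAG2 in control and JAG1 in mutp53-depleted cells at both times. The summed ligand level per kb was 553 and 595 in control at 0 h and 673 and 590 at 16 h, against 201 and 182, then 335 and 281, in the mutp53-depleted libraries. These are shares of mRNA per length, and protein was not measured.

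**Figure D3:**
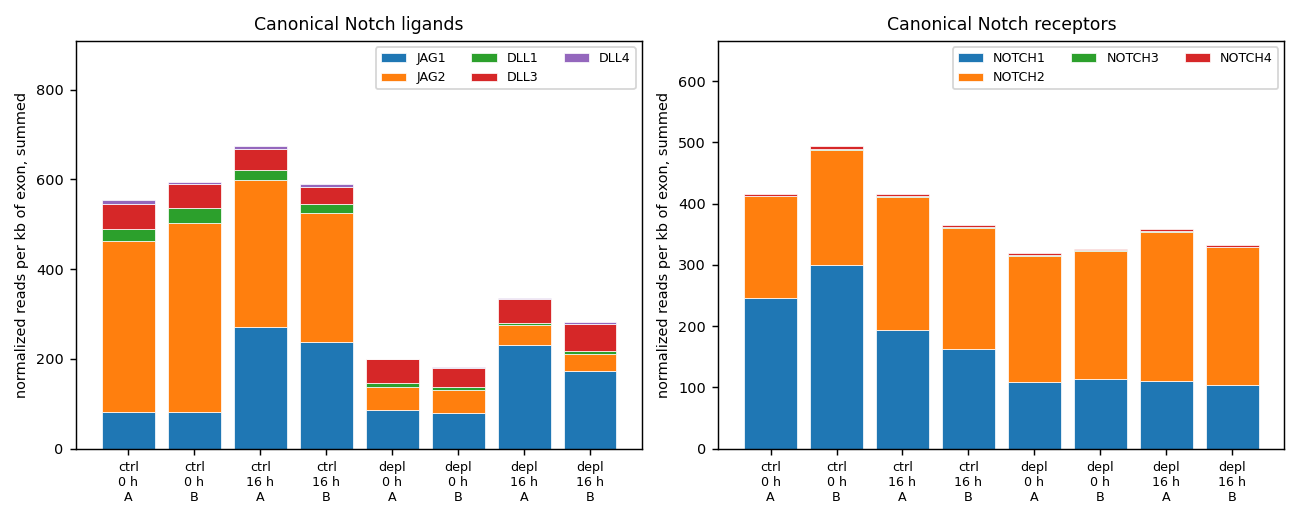
Stacked normalized reads per kb of exon (vertical axis from 0) of the canonical ligands (JAG1, JAG2, DLL1, DLL3, DLL4) and of the receptors (NOTCH1 to NOTCH4), 1 bar for each of the 8 libraries. JAG2 takes 69.2% and 70.6% of the ligand bars in control cells at 0 h and JAG1 68.8% and 61.9% in mutp53-depleted cells at 16 h.

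Of the receptors, NOTCH1 (NM_017617, hg19 chr9:139388896-139440238, minus strand) fell after depletion at 0 h. It had 2282 and 2771 normalized reads in control at 0 h and 1788 and 1504 at 16 h, against 1007 and 1045, then 1024 and 968, in mutp53-depleted libraries. All control libraries lay above all mutp53-depleted ones, and the 2 control libraries at 0 h were the highest. The ratio of the means, control over mutp53-depleted, was 2.46 at 0 h and 1.65 at 16 h. The log2 fold change was −1.29 at 0 h (SE 0.09, adjusted p = 2.2e-09) and −0.72 at 16 h (adjusted p = 3.6e-06, below the 2-fold threshold). TNF-α changed NOTCH1 by −0.62 in control cells (adjusted p = 5.8e-05, below the 2-fold threshold) and by −0.04 in mutp53-depleted cells (adjusted p = 0.79). The interaction of 0.57 passed (SE 0.13, adjusted p = 0.020), but it was lost with no filter on low values (0.061) and when the control replicate B at 0 h (0.13) or at 16 h (0.11), the mutp53-depleted replicate A (0.11) or B (0.076) at 0 h, or the mutp53-depleted replicate A at 16 h (0.079) was left out.

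NOTCH2 (NM_024408, hg19 chr1:120454176-120612317, minus strand) did not pass the threshold in any comparison. It had 1890 and 2148 normalized reads in control at 0 h, 2488 and 2269 at 16 h, and 2353 and 2391, then 2781 and 2567, in mutp53-depleted libraries. Only the control libraries at 0 h lay below all others. Its log2 changes were 0.24 with depletion at 0 h (adjusted p = 0.016) and 0.24 with TNF-α in control cells (adjusted p = 0.029), both below 2-fold. NOTCH2 has near-identical partial copies in the genome, so its count is uncertain. NOTCH3 (NM_000435, hg19 chr19:15270444-15311792, minus strand) had 2.47 to 17.8 normalized reads, which were 2 to 18 reads, and did not pass in any comparison. Its log2 change was −1.03 with depletion at 16 h and −1.34 with TNF-α in mutp53-depleted cells (adjusted p = 0.11 and 0.07). Without the mutp53-depleted replicate A at 16 h, which leaves the library of 2 reads alone in its group, these were −1.87 and −2.18 and passed (adjusted p = 0.010 and 0.0085).

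Per kb, NOTCH1 at 273 exceeded NOTCH2 at 177 in control cells at 0 h, whereas NOTCH2 exceeded NOTCH1 in each of the other groups. NOTCH1 made up 59.2% and 60.7% of the summed receptor level per kb in control cells at 0 h and 46.5% and 44.4% at 16 h. In mutp53-depleted cells it made up 34.1% and 34.6% at 0 h and 30.9% and 31.5% at 16 h. NOTCH3 and NOTCH4 were minor throughout. The summed receptor level per kb at 0 h was 416 and 493 in control and 319 and 326 in mutp53-depleted libraries. At 16 h it was 415 and 366 in control and 358 and 332 in mutp53-depleted libraries. These sums and shares include NOTCH2, whose count is uncertain.

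LFNG (NM_001040167, hg19 chr7:2559479-2568063, plus strand), the Fringe enzyme, fell with TNF-α in both lines. It had 146 and 150 normalized reads in control at 0 h and 50.3 and 42.7 at 16 h, and 123 and 108 in mutp53-depleted libraries at 0 h and 63.7 and 50.6 at 16 h. All libraries at 0 h lay above all libraries at 16 h. It fell by 1.65 in control (SE 0.19, adjusted p = 2.7e-06) and by 1.01 in mutp53-depleted cells (adjusted p = 0.00064). The second change lies at the 2-fold threshold, and it was between −0.84 and −0.96, thus below that threshold, with median-ratio scaling, with 5 added before the logarithm, in edgeR and DESeq2, and without the mutp53-depleted replicate A at 0 h or replicate B at 16 h. The difference of 0.65 between the lines did not pass (adjusted p = 0.28). Depletion changed LFNG by −0.36 at 0 h and 0.29 at 16 h, neither of which passed (adjusted p = 0.13 and 0.22).

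HES1 (NM_005524, hg19 chr3:193853931-193856401, plus strand), whose upstream sequence with its letter matches to the RBPJ core is printed above, was the target with a change. It had 323 and 315 normalized reads in control at 0 h and 196 and 159 at 16 h, against 430 and 459, then 426 and 465, in mutp53-depleted libraries. The control libraries at 16 h were the lowest, and the mutp53-depleted libraries were the highest at both times. The ratio of the means, mutp53-depleted over control, was 1.39 at 0 h and 2.51 at 16 h. The log2 fold change was 0.48 at 0 h (SE 0.11, adjusted p = 0.0015, below the 2-fold threshold) and 1.33 at 16 h (adjusted p = 1.6e-08). TNF-α changed HES1 by −0.85 in control cells (adjusted p = 1.3e-05, below the 2-fold threshold) and by 0.00 in mutp53-depleted cells (adjusted p = 0.99). The interaction was 0.85 (SE 0.16, adjusted p = 0.0047), and it passed in 17 of 17 alternative settings, with values from 0.70 to 1.00. HEY1 (NM_012258, hg19 chr8:80676245-80680098, minus strand), a related repressor, had 4.94 to 16.8 normalized reads, which were 4 to 20 reads. Its libraries in control cells at 16 h lay above those at 0 h of both lines, and the mutp53-depleted ones at 16 h spanned all others. Its log2 changes, between −0.55 and 0.42, did not pass in any comparison (adjusted p 0.38 to 0.96).

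Some members lay in chromosome regions where most genes differed between the lines in one direction. This was measured for each member as the median log2 change of the 50 tested genes around it. They were the nearest in order of start position rather than by distance, equally many on each side except near chromosome ends. That median was 0.85 at 0 h and 0.71 at 16 h around HES1, −0.95 and −0.99 around LFNG, and −0.40 and −0.39 around NOTCH1. Around the other members it lay between −0.17 and 0.15. With the median of its neighbours removed, HES1 was −0.38 at 0 h (adjusted p = 0.017), opposite in sign, and 0.62 at 16 h (adjusted p = 0.00045), below the 2-fold threshold. Its interaction was then 1.00 (adjusted p = 0.0030). NOTCH1 was −0.90 at 0 h after this step (adjusted p = 5.4e-07), also below 2-fold. LFNG was 0.60 at 0 h (adjusted p = 0.0075) and 1.28 at 16 h (adjusted p = 8.2e-06), which passed. The falls of JAG2, DLL1 and DLL4 at both times passed with the neighbours' median removed. This median came from the same libraries and was subtracted as a fixed value. The adjusted p-values after this step therefore leave out the uncertainty of the median.

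**Figure D4:**
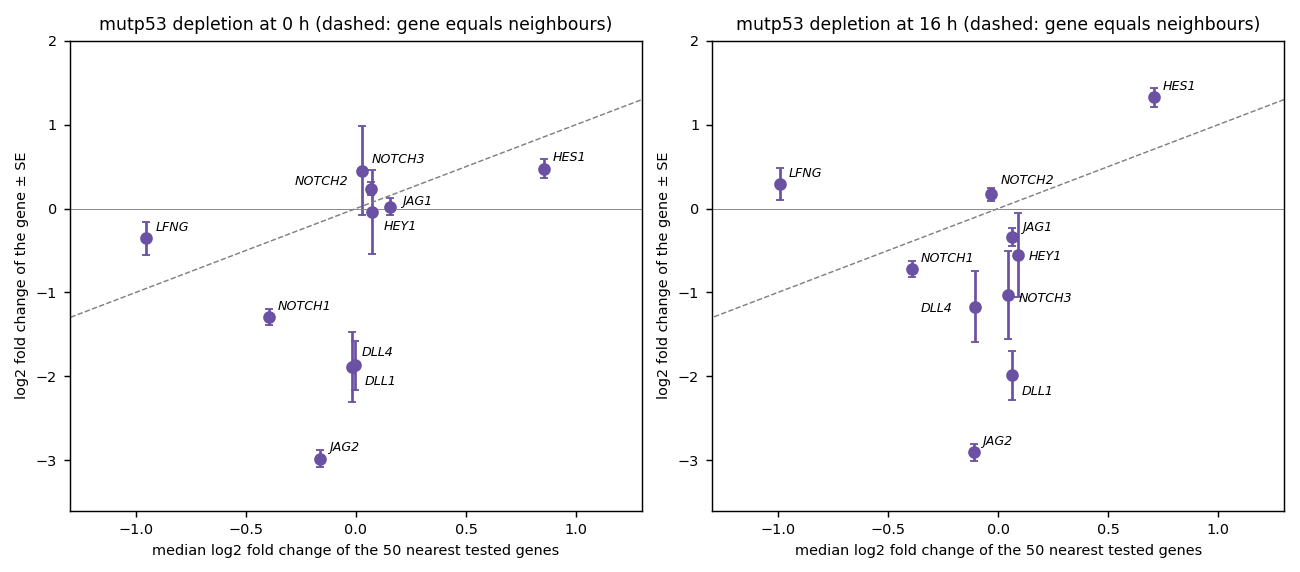
Log2 fold change of each Notch gene with depletion (vertical axis, error bars are the limma standard error) at 0 h and at 16 h. The horizontal axis is the median log2 fold change of its 50 nearest tested genes, in order along the chromosome. HES1 lies at a neighbour median of 0.85 and 0.71 and LFNG at −0.95 and −0.99, while JAG2, DLL1 and DLL4 lie far below the line of equality.

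Ranked per kb among all 14800 genes tested in control cells at 0 h, JAG2 stood at percentile 86.1, NOTCH1 at 79.6, HES1 at 75.0 and NOTCH2 at 69.8. JAG1 stood at 50.7, LFNG at 44.6, DLL1 at 30.5, DLL4 at 14.5, HEY1 at 10.7 and NOTCH3 at 3.85.

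For the members with a call, the genes with the most similar pattern were found by Pearson's r of log2(normalized reads + 1) over the 8 libraries. These values describe libraries that share 4 groups and carry no test. For JAG2 they were ADAMTSL2 (r = 1.00) and SLC27A3 (r = 0.999), and for JAG1 they were IL18R1 (r = 0.996), an interleukin receptor chain, and CCL2 (r = 0.995), a chemokine. CCL2 ranged from 2.74 to 1968 normalized reads. For NOTCH1 they were FIBCD1 (r = 0.989) and IL13RA1 (r = 0.987), for HES1 DOC2A (r = 0.988) and MYLK-AS1 (r = 0.984), and for LFNG SNX18 (r = 0.994) and ACVR1B (r = 0.990). DLL1 was matched by ARHGAP8 (r = 0.996) and PDE6D (r = 0.992), and DLL4 by RNF224 (r = 0.975) and HIC1 (r = 0.973).

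A further 63 genes of the pathway were listed by role, and 56 of them were tested. The 7 not tested were DLK1, DTX1, HES5, ATOH1, SPDEF, TFF3 and NEUROG3. At 0 h 3 of the 56 were called higher and 4 lower, and at 16 h 2 were higher and 5 lower, beside 5.89% and 9.55% of all genes tested at 0 h and 5.03% and 10.2% at 16 h. TNF-α raised 1 and lowered 5 in control cells and raised 1 and lowered 6 in mutp53-depleted cells, beside 2.97% and 4.27%, then 1.86% and 4.5%, of all genes tested. Counts this small were not set apart from these shares by any test. Their median log2 changes lay between −0.09 and 0.08 in these comparisons. The proteases that cut the ligands and receptors, 9 genes including ADAM10, ADAM17 and the γ-secretase subunits, had 0 calls in any comparison, a number of genes too small to set against the shares over all genes.

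Of the enzymes that act on ligands, MIB1, a ubiquitin ligase needed for ligand endocytosis, had 890 and 983 normalized reads in control at 0 h and 749 and 905 at 16 h, against 390 and 361, then 366 and 321, in mutp53-depleted libraries. The lines did not overlap, and MIB1 fell by 1.32 at 0 h (adjusted p = 6.1e-09) and by 1.26 at 16 h (adjusted p = 9.7e-09). NEURL1, of the other ligase family, was higher by 2.38 at 0 h (adjusted p = 0.023), but had 0 to 12.3 normalized reads and lost the call in DESeq2 (adjusted p = 0.15), with 0.1 added before the logarithm (0.077), and without the control replicate B (0.34) or the mutp53-depleted replicate A (0.080) or B (0.10) at 0 h. NEURL1B fell with TNF-α in mutp53-depleted cells by 1.55 (adjusted p = 2.4e-05). In control cells it fell by 0.92 (adjusted p = 0.0034), below 2-fold, and its interaction did not pass (adjusted p = 0.37). MFNG, another Fringe, had 6 and 3 reads in control at 16 h and 7 and 4 in mutp53-depleted libraries at 0 h. Both mutp53-depleted libraries after TNF-α had 0 reads. With these set at 3 reads each, MFNG was 1.62-fold lower than in control at 16 h and 1.64-fold lower than before TNF-α. Both values lie below 2-fold. The calls (limma adjusted p = 0.0016 and 0.0036) come from fitted changes that depend on the value added before the logarithm. DESeq2 gave no adjusted p for the second of these. DLK2, a non-canonical ligand, fell with TNF-α in control cells by 1.29 (adjusted p = 0.0056), a call lost in DESeq2 (0.061). In mutp53-depleted cells its change of −0.65 did not pass (adjusted p = 0.15), and neither did its interaction (adjusted p = 0.6).

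In the nucleus, RBPJ had 580 to 805 normalized reads and did not pass in any comparison. Its log2 changes with depletion were 0.10 at 0 h and 0.33 at 16 h. MAML2, a Mastermind coactivator, fell with TNF-α by 1.48 in control and by 1.74 in mutp53-depleted cells (adjusted p = 4e-06 and 7.1e-07). KAT2B, an acetyltransferase of the activation complex, fell by 1.53 and 1.25 (adjusted p = 0.00016 and 0.0011). Among the co-repressors, TLE1 had 67.5 and 53.02 normalized reads in control at 0 h and 32.9 and 22.8 at 16 h, against 430 and 436, then 368 and 371, in mutp53-depleted libraries. TLE1 rose with depletion by 2.83 at 0 h (SE 0.18, adjusted p = 3.8e-10) and by 3.71 at 16 h (adjusted p = 1.3e-11). With TNF-α it fell in control cells by 1.10 (adjusted p = 0.00012). The fall was less than 2-fold without the control replicate A at 0 h (−0.93) or replicate B at 16 h (−0.84). In mutp53-depleted cells TLE1 changed by −0.23 with TNF-α (adjusted p = 0.39), and its interaction did not pass (adjusted p = 0.075). TLE2 fell with TNF-α in mutp53-depleted cells by 1.53 (adjusted p = 0.0080). This call was lost in DESeq2 (0.074) and without the mutp53-depleted replicate A at 0 h (log2 −1.41). In control cells TLE2 changed by −0.24 with TNF-α (adjusted p = 0.72), and its interaction did not pass (adjusted p = 0.31).

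Of the other HES and HEY targets, HES4 and HEY2 passed. HES4, a relative of HES1, had 323 and 309 normalized reads in control at 0 h and 399 and 309 at 16 h, against 83.1 and 65.8, then 137 and 101, in mutp53-depleted libraries. HES4 thus fell with depletion, by 2.08 at 0 h (SE 0.17, adjusted p = 9.4e-09) and by 1.56 at 16 h (adjusted p = 3.4e-07). HES1 was higher by 0.48 at 0 h, below 2-fold, and by 1.33 at 16 h. With its neighbours' median removed, HES1 was −0.38 at 0 h. The neighbours' median around HES4 was −0.36 at 0 h and −0.295 at 16 h. HEY2 fell with TNF-α from 154 and 111 to 39.6 and 39.8 in control and from 177 and 165 to 56.2 and 59.2 in mutp53-depleted libraries, log2 changes of −1.69 and −1.55 (adjusted p = 2.2e-06 and 8e-06). NRARP, a Notch target that inhibits the pathway, had 866 to 1277 normalized reads and did not pass the threshold in any comparison. With TNF-α it changed by 0.18 in control (adjusted p = 0.082) and 0.50 in mutp53-depleted cells (adjusted p = 4.4e-05). Its interaction did not pass (adjusted p = 0.12). With depletion NRARP changed by −0.10 at 0 h (adjusted p = 0.26) and 0.22 at 16 h (adjusted p = 0.016), where its neighbours' medians were −0.74 and −0.65. DTX4, a Deltex family ligase, rose with depletion by 1.51 at 0 h and 1.90 at 16 h and with TNF-α in mutp53-depleted cells by 1.28 (adjusted p = 5.4e-06, 3.4e-07 and 0.00011). With TNF-α in control cells DTX4 rose by 0.895 (adjusted p = 0.0027), below 2-fold. Its interaction did not pass (adjusted p = 0.62).

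The genes of the secretory fate were mostly low. ATOH1, TFF3 and NEUROG3 had 0 reads in all 8 libraries. CHGA, an enteroendocrine marker, had 34.1 and 31.8 normalized reads in control at 0 h and 30.0 and 14.2 at 16 h, against 2.68 and 2.74, then 1.68 and 1.23, in mutp53-depleted libraries. It fell by 3.19 at 0 h (adjusted p = 2.4e-05) and was at least 7.11-fold lower at 16 h. GFI1, a repressor used in secretory differentiation, fell by 1.14 and 1.02 (adjusted p = 5.9e-05 and 0.00019), values near the threshold, which were −0.90 without the control replicate A at 0 h and −0.87 without the control replicate A, or −0.97 with 5 added before the logarithm, at 16 h. MUC2, a goblet cell mucin, rose with TNF-α in control cells by 2.44 (adjusted p = 0.0013) from 1.45 and 7.57 to 25.1 and 22.8 normalized reads. This rests on 2 and 5 reads at 0 h, and the change was 1.54 without the control replicate A and 3.35 without the control replicate B at 0 h. In mutp53-depleted cells MUC2 changed by 1.15 with TNF-α, which did not pass (adjusted p = 0.10). Its interaction did not pass either (adjusted p = 0.47). The interaction was called for 3 further genes of the 56 tested, beside 2.86% of all genes tested. These were DTX3 at 0.56, TLE4 at −0.51 and ITCH at −0.48 (adjusted p = 0.043, 0.035 and 0.028). TLE4 lost this call without any 1 of the 8 libraries (adjusted p 0.057 to 0.17) and in DESeq2 (0.21). When 1 library was left out, DTX3 kept the call only without the control replicate A at 16 h (adjusted p 0.083 to 0.25 without each of the others). DTX3 also lost it in DESeq2 (0.14), with no filter (0.067), with 0.1 added before the logarithm (0.06) and with the neighbours' median removed (0.17). ITCH lost it without the control replicate A at 0 h (0.12) or B at 16 h (0.11), and without the mutp53-depleted replicate A (0.13) or B (0.11) at 0 h or B at 16 h (0.18), as well as with no filter (0.061).

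**Figure D5:**
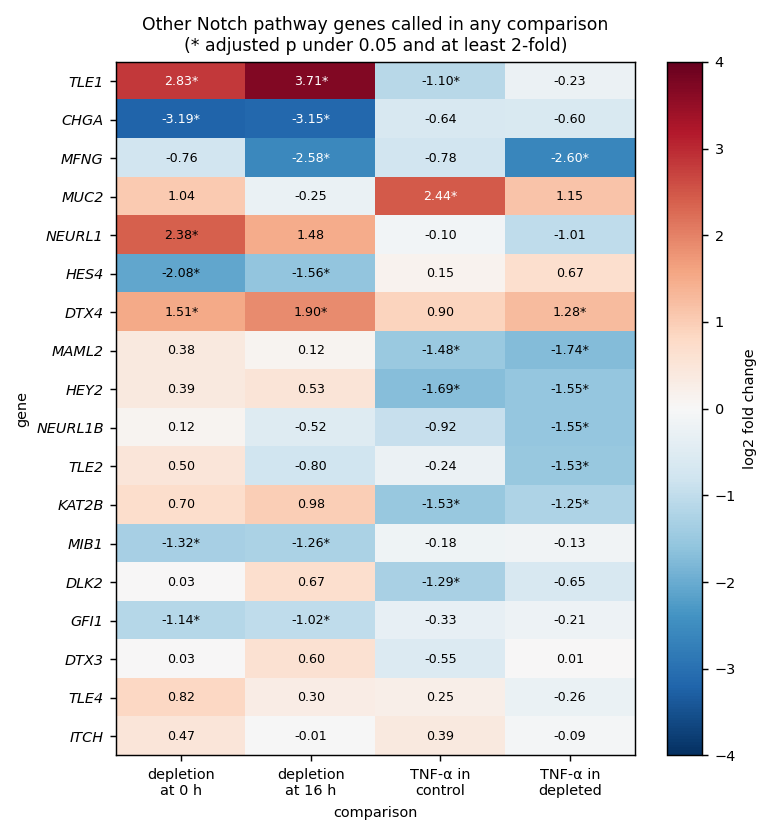
Log2 fold changes of the named genes among the further 63 Notch pathway genes in the 4 pairwise comparisons, where a star marks a change of at least 2-fold at an adjusted p below 0.05. TLE1 is highest with depletion (2.83 and 3.71), and DTX3, TLE4 and ITCH carry no star because they were called by the interaction alone. The fitted values of MFNG against 0 reads depend on the 1 added and are no bounds.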

How the data were processed

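Of the 17 samples in the labels, the 4 mRNA-seq samples (2 libraries each) were analysed. STAR was used by the authors to map single-end reads of 50 bases. The authors counted them on RefSeq exons by strand with HOMER and deposited signal values, that is reads scaled to 1 total per library. The table header gives hg19 and the labels hg38, so coordinates are hg19, and upstream sequences (GRCh38.p14) were matched by symbol. The fold changes and p-values deposited by the authors were not used. Whole reads were recovered for 100% of values (within 0.05 reads).

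Values were compared as log2(value + 1) with limma 3.58.1 (trend) in R 4.3.3 over the 14800 genes whose mean was 2.5 or more, in 1 model of 4 group means. The members and gene lists were chosen with earlier results of these data known. Named are all members, NFKBIA and TNFAIP3, the 15 other Notch genes with the largest called changes, the 2 genes most similar to each called member, and any gene a count of 5 or fewer needs. RBPJ, NRARP and the markers are named as members of their lists, and some listed check genes are not reported here. Alternatives were median-ratio scaling, no filter or a mean of 10, pseudocounts of 0.1 and 5, a replicate block, and each library left out. Further alternatives were edgeR 4.0.16 and DESeq2 1.42.0 on recovered reads. The last was removal of the median of the 50 nearest genes in order along the chromosome. On simulated data for depletion at 0 h, limma called 198 of 200 changed genes with 6 false calls among 14774 genes. The changed genes there had a mean of 50 or more and changes of 2.5-fold or 4-fold, at 1 fixed dispersion for all genes. Weakly expressed genes and changes near 2-fold were therefore not covered by it. The ChIP-seq and GRO-seq samples were not analysed here.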

Additional observations from a re-analysis of the deposited data

Results flagged for a closer look

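The effect of depletion on HES1 differed between the time points, by limma's interaction test. It was 0.48 at 0 h and 1.33 at 16 h on the log2 scale, a difference of 0.85 (adjusted p = 0.0047). Both mutp53-depleted libraries lay above both control libraries at each time.

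The effect on NOTCH1 also differed, −1.29 at 0 h and −0.72 at 16 h, a difference of 0.57 (adjusted p = 0.020). This call was lost in 6 of 17 alternatives, with no filter on low values and without any 1 of 5 libraries (adjusted p 0.061 to 0.13). Both mutp53-depleted libraries lay below both control libraries at each time. With 2 libraries per group, outlying libraries could not be searched for.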

How the results depend on the processing

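With 2 libraries per group, low counts limit NOTCH3, HEY1, DLL4, NEURL1 and MFNG, and changes near 2-fold move across the threshold. Of 54 called results for single genes, 38 stayed called under all alternatives that gave an adjusted p, and of 1487 recomputed gene values 1391 kept direction and side of the threshold, 65 lost their call, 4 gained one and 27 changed sign. The cause of these shifts was not tested, except where libraries were left out, which lowers the number of samples.

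With the neighbours' median removed, the sign changed for depletion at 0 h of JAG1 (−0.13), LFNG (0.60) and HES1 (−0.38) and for the interaction of NOTCH2 (0.033). TNF-α in mutp53-depleted cells changed NOTCH1 by 0.023 with median-ratio scaling, 0.021 in edgeR and 0.026 in DESeq2, and HEY1 by 0.36 in edgeR and 0.24 in DESeq2. The members called for TNF-α in mutp53-depleted cells were 1 instead of 2 with median-ratio scaling, with a pseudocount of 5, in edgeR and in DESeq2, and 1 to 3 when a library was left out. For the interaction, the members called were 1 with no filter and 1 to 2 with a library left out. The other Notch genes called for it were 1 with no filter, 1 in DESeq2 and 0 to 3 with a library left out, and all genes called for it were 208 to 421 with a library left out instead of 424.

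With a library left out, values that changed sign ranged from −0.32 to 0.24 (HEY1) and −0.027 to 0.076 (JAG1) for depletion at 0 h, and from −1.34 to 0.24 (HEY1) at 16 h. For TNF-α in control cells they ranged from −0.21 to 0.50 (NOTCH3) and −0.46 to 0.11 (DLL4), and in mutp53-depleted cells from −0.062 to 0.066 (HES1) and −0.89 to 0.69 (HEY1). For the interaction they ranged from −0.16 to 0.026 (NOTCH2), −0.50 to 0.27 (DLL1), −0.07 to 0.22 (JAG2) and −1.304 to 0.28 (HEY1).

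The letters A and B come from the column names only, and deviations of libraries with the same letter correlated at −0.02 to 0.07. With the replicate block, the interaction was called for 5 other Notch genes instead of 3, and the members called were 4 and 4 for depletion at 0 h and 16 h and 2 in each other comparison, as without it.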
